A study of Mus musculus with 5 samples.

Results

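The S100 calcium-binding proteins were followed through a single-cell data set of adult mouse retina. The members are the 8 genes S100a1, S100a4, S100a6, S100a10, S100a11, S100a13, S100a16 and S100b, chosen by symbol from the 33696 genes of the deposited gene list, which holds 18 S100 gene symbols. Their counts of unique molecular identifiers (UMIs) were read in Müller glia (MG), the radial glia that span the retina, and in the other cells of the same sorts. Mice carried Glast-CreERT2, a tamoxifen-dependent recombinase under a glial promoter, and the Rosa26-Ai65 reporter, which needs both Cre and Flp for tdTomato, on C57BL/6J, were 12 to 20 weeks old, and both sexes were pooled. All received an intravitreal ShH10 AAV, with FlpO behind a Gfap promoter, that also encoded mKate2 in controls or Yap5SA, a form of YAP that resists Hippo signaling. tdTomato+ cells were sorted 56 days after injection, from 16 pooled control retinas and 21 pooled Yap5SA retinas. Since the retinas were pooled, libraries of one group need not come from separate animals, and p-values measure the spread between captures, which may be technical.

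Libraries numbered 2 for mKate2 AAV and 3 for Yap5SA AAV, but Yap5SA AAV replicates 1 and 2 shared 1361 barcodes, 99.8% of the smaller library, and replicate 2 was left out. This left 4 captures with 15293 cells, of which 10749 had at least 1000 UMIs and at most 15% mitochondrial UMIs. MG were cells with at least 0.5% of their UMIs from Glul, Rlbp1, Slc1a3, Clu and Aqp4. They numbered 6540. mKate2 AAV replicate 1 held 1498 of them, replicate 2 held 2898, Yap5SA AAV replicate 1 held 803 and replicate 3 held 1341. The median depth was 6194.5, 2918.5, 10778 and 2920 UMIs per MG cell in that order. Of the MG, 6145 lay in clusters named MG-like. Cells with a marker share close to the limit on either side of it, between 0.4 and 0.6%, numbered 403. The sorts also held rod-like cells, cells of clusters named from a list of microglia and macrophage markers (called microglia-like here) and others, although the labels give purified MG.

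S100 proteins are small calcium sensors of the EF-hand family that bind and release partner proteins as calcium changes, mostly as dimers. S100b is a classical marker of astrocytes and other glia, and S100a10 lies in a complex with annexin A2. S100a4 binds the heavy chain of non-muscle myosin, S100a6 binds the Cacybp protein and annexins, S100a11 binds annexin A1, and S100a13 takes part in the release of fibroblast growth factor 1. Extracellular S100 proteins can act on the receptor Ager. Several members are known to rise in reactive glia.

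Of the 8 genes, 7 lie on chromosome 3 of GRCm39 and S100b on chromosome 10 (chr10:76085090-76097159, plus strand, 3 exons in the canonical transcript). S100a13 (chr3:90416091-90431912, plus strand), S100a1 (chr3:90418340-90421848, minus strand), S100a16 (chr3:90444172-90450462), S100a4 (chr3:90511074-90513354) and S100a6 (chr3:90520140-90535843) stand close together. S100a11 (chr3:93414382-93435293) and S100a10 (chr3:93462213-93474510) stand apart from them, and the 7 span 3058.4 kb. S100a1 lies inside the limits of S100a13 on the other strand.

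The 250 bases before the RefSeq start (GRCm38.p6 table) were read for 7 members, and each matched GRCm39 exactly once. They are shown for 4 genes. S100a11 was the gene most like S100a6 over cell classes, and the windows of S100a1 and S100a13 overlap by 104 bases on opposite strands (chr3:90421638-90421741). Positions on GRCm39 were chr3:90519951-90520200, plus strand for S100a6, chr3:93427553-93427802, plus strand for S100a11, chr3:90421638-90421887, minus strand for S100a1 and chr3:90421492-90421741, plus strand for S100a13. Capitals mark matches to TGANTCA or to GGAATG, the letters bound by TEAD, the DNA-binding partner of YAP. TGANTCA is a loose form of the AP-1 site, which has G or C at N, while any base was taken there.
S100a6: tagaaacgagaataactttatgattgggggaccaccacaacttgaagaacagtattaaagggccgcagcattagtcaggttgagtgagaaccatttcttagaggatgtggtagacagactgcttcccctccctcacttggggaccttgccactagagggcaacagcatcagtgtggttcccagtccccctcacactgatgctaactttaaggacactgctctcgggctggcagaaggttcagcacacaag
S100a11: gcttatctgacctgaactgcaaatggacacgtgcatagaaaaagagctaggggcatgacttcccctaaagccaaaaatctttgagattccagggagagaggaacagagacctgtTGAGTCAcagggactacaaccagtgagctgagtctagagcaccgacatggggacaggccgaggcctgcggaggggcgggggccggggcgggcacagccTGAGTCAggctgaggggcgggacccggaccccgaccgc
S100a1: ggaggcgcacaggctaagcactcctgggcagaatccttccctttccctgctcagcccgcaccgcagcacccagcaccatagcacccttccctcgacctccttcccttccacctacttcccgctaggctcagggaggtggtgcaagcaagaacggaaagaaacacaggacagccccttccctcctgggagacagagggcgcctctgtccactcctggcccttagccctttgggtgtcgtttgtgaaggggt
S100a13: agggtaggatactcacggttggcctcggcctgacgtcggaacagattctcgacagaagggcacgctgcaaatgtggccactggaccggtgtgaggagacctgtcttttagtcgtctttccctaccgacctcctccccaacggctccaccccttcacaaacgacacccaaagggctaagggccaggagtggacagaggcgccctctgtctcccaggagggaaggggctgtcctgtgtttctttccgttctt
S100a11 held TGAGTCA at 136 to 130 and again at 38 to 32 bases before its start, and S100a16 held TGAATCA at 192 to 186 bases before its start. TGANTCA was thus found in 2 of 7 members, against 6.87% of 27025 promoters of the same length, with both strands searched. GGAATG was found in 0 of 7 members, against 12.67% of those promoters. Not marked by capitals, GGGCGG, the GC box, was in 2 of 7 members (S100a11 and S100a16) against 32.4%, and the NF-kB motif in 0 of 7 against 0.13%. The motifs share no letters of overlap in these windows. A match is a description of letters, not a binding site, and no match says only that these letters are not in this window.

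The levels in MG come first. S100a6 was read at 446 CPM (counts per 1e6 UMIs of the summed cells) in mKate2 AAV replicate 1, 1456 in mKate2 AAV replicate 2, 1366 in Yap5SA AAV replicate 1 and 318 in Yap5SA AAV replicate 3. The captures thus fell into a higher and a lower pair, with 1 capture of each AAV in each pair. S100a10, the annexin A2 partner, gave 217, 417, 389 and 154 CPM in the same order. S100a11 gave 97.2, 216, 206 and 85.5 CPM. In both genes mKate2 AAV replicate 2 and Yap5SA AAV replicate 1 were again the higher ones, and the AAV groups overlapped. S100a4 gave 49.3, 117, 121 and 56.0 CPM. S100a13 gave 128, 186, 219 and 111 CPM. In both, mKate2 AAV replicate 2 and Yap5SA AAV replicate 1 were the upper captures, with Yap5SA AAV replicate 1 the highest. S100a1 was the steadiest member, at 467, 617, 599 and 502 CPM, and its highest capture was 1.32-fold above its lowest. S100a16 gave 287, 566, 367 and 459 CPM, and was the only member whose second highest capture was Yap5SA AAV replicate 3. S100b was low, at 12.96, 29.9, 19.0 and 12.4 CPM, from 154, 555, 183 and 97 UMIs. In 7 of 8 members, all but S100a16, mKate2 AAV replicate 2 and Yap5SA AAV replicate 1 were both above the other captures, a pattern counted after it was seen, which 12.3% of the 15285 genes tested showed. The MG of the captures also lay unequally over the MG-like clusters. Cluster 3 held 696 MG of mKate2 AAV replicate 1, and clusters 2 and 4 held 1116 and 631 of mKate2 AAV replicate 2. Cluster 5 held 420 MG of Yap5SA AAV replicate 1 and cluster 1 held 557 of Yap5SA AAV replicate 3. S100a6 over the MG of the 4 captures was at 2988 CPM in cluster 4 and at 299.9 CPM in cluster 3. Clusters 1, 2 and 10 held at least 20 MG of each capture, and S100a6 in the 4 captures was at 823, 1014, 1887 and 598 CPM in cluster 1, at 687, 1911, 2600 and 625 CPM in cluster 2 and at 287, 331, 171 and 122 CPM in cluster 10. The higher pair of captures was thus the same in clusters 1 and 2 and not in cluster 10. The ratio of the highest to the lowest capture had a median of 2.36 over the 8 members and 1.66 over all genes tested, both on log2(CPM + 1) turned back to folds.

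**Figure D1:**
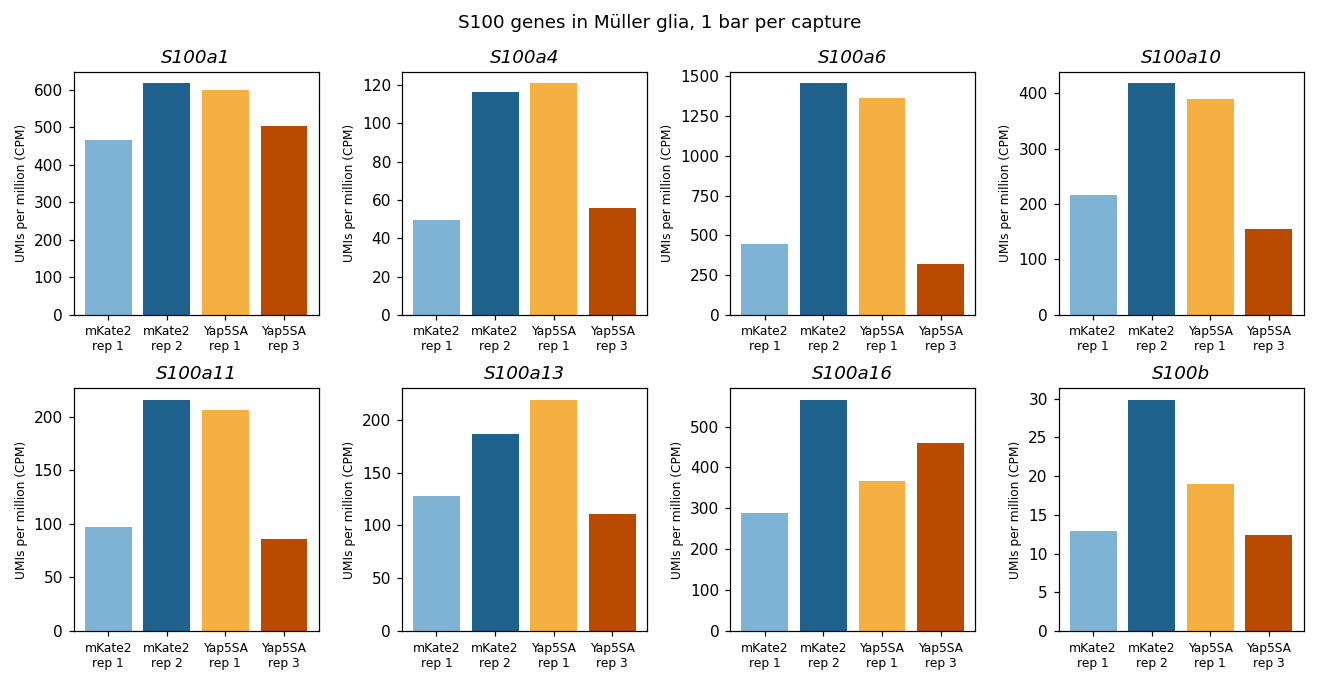
Levels of the 8 S100 genes in MG, as CPM (linear axes from 0), with 1 bar for the summed MG of each capture and no error bars, since each capture is 1 sample. S100a6 stands at 1456 and 1366 CPM in mKate2 AAV replicate 2 and Yap5SA AAV replicate 1 and at 446 and 318 CPM in the other two captures, while S100a1 stays between 467 and 617 CPM.

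The comparison of MG between AAVs asked whether MG that had carried Yap5SA differed from control MG 56 days later. No member passed the test: edgeR's quasi-likelihood test on the summed counts called 0 of 8 members and 0 of 15285 genes at an adjusted p under 0.05 (0% of genes called), while 30 genes had an unadjusted p under 0.05 and DESeq2 also called 0 genes. All 8 members had values below 0 on the log2 scale, Yap5SA over mKate2, from -0.60 ± 0.56 (SE) for S100b to -0.06 ± 0.44 for S100a13, with a median of -0.22 beside -0.03 over all genes tested. For S100a6 the value was -0.35 ± 0.92, so that the error was larger than the value. With changes of 8-fold put into simulated counts of this comparison, 50% of 200 genes were recovered, and with changes of 2-fold 0%, so a change of the size seen here could not have been detected. The sign was not stable, since without mKate2 AAV replicate 2 every member was higher with Yap5SA, with S100a6 at 0.92.

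The deposited headers name 2 processing versions, 8.0.0 for replicate 1 of each AAV and 9.0.1 for the other captures, and the values turned with them. Within version 8.0.0, S100a6 was 1.61 higher with Yap5SA on log2(CPM + 1). Within version 9.0.1 it was lower, at -2.19. All 8 members were higher with Yap5SA in the first and lower in the second, as were 22.9% of the genes tested. With 1 capture per AAV in each version there is no test of this, and the version, the capture and anything else that differed between the sorts cannot be told apart.

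Gfap, the intermediate filament gene of reactive MG and astrocytes, was read at 24.2, 284, 125 and 6.38 CPM in the 4 captures. Its order of captures was that of S100a6 for the upper pair and the lower pair. Lcn2, Serpina3n and Vim, also genes of gliosis, had other captures in the upper pair: Lcn2 gave 1217, 1245, 562 and 29.7 CPM, Serpina3n 221, 471, 202 and 14.04 CPM, and Vim 934, 1458, 878 and 1057 CPM. Pax2, which astrocytes express and MG do not, had 0, 52, 0 and 2 UMIs in the MG of these captures. Gja1, which astrocytes also express, had 0, 150, 22 and 105 UMIs there. It was at 423 and 182 CPM in pigment epithelium-like cluster 27 of mKate2 AAV replicate 2 and Yap5SA AAV replicate 3. Of the 83 cells of that cluster, 82 counted as MG. In unnamed cluster 34 of Yap5SA AAV replicate 1 it was at 157 CPM. Its counts are thus not read as astrocytes. The part of these genes and cells in the S100 levels was not tested. As the sums are over cells, fewer cells with a gene and less RNA per cell cannot be told apart in them, and the shares of cells follow.

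After thinning each MG cell to 2000 UMIs, which left out 308, 870, 93 and 411 shallower cells, S100a6 had a UMI in 46.1% (exact 95% interval 43.2 to 48.9%) of MG in mKate2 AAV replicate 1, 79.7% (77.9 to 81.5%) in mKate2 AAV replicate 2, 75.6% (72.3 to 78.8%) in Yap5SA AAV replicate 1 and 46.1% (42.9 to 49.4%) in Yap5SA AAV replicate 3. Intervals cover counting error only. For S100a6 the pairs of captures seen in the summed levels were thus also seen in the shares of cells. S100a1 had a UMI in 52.9, 72.6, 57.6 and 64.6% of MG, and S100a16 in 37.2, 71.5, 46.2 and 61.9%. In both of these Yap5SA AAV replicate 3 was above Yap5SA AAV replicate 1. S100b had one in 2.35, 3.25, 3.94 and 2.90% of MG, and in 3.57, 2.51, 0.74 and 0% of the 28, 756, 136 and 54 microglia-like cells thinned the same way. The S100b share of MG was below that of microglia-like cells in mKate2 AAV replicate 1, and this share is not read as above that of microglia-like cells. In rod-like cells thinned the same way, S100a6 had a UMI in 6.57% and 1.22% of cells and S100b in 0.16% and 0.61% in mKate2 AAV replicate 2 and Yap5SA AAV replicate 3, at median depths of 8102 and 3667 UMIs before thinning. MG shares lay above those of rod-like cells for all 8 members in both captures. Between AAVs the shares differed by -2.01 percentage points for S100a6 and by 0.85 for S100a13, within the spread between captures, and 2 against 2 captures cannot give a permutation p under 0.3333.

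S100 genes differed in which cell classes they marked. Classes other than MG are clusters, made without the S100 genes and named from marker lists, from which cells past the MG limit were removed, except in pigment epithelium-like cells. Clusters that stayed unnamed are in no class, so the orders given here hold among the named classes. S100a16 was at 420 ± 119.9 CPM (SD, n = 4 captures) in MG and at 10.8 ± 5.7 in microglia-like cells. S100a1 was at 546 ± 73 CPM in MG, at 67.6 ± 6.2 in microglia-like cells and at 1140 ± 66 CPM (n = 2) in pigment epithelium-like cells, a cluster of 83 cells of which 82 passed the MG limit, with Clu at 14179 and Rlbp1 at 2545 CPM. The MG and microglia-like levels of both genes did not overlap in any capture. Among named classes S100a6 and S100a11 were led by pericyte-like cells, with 10971 and 2914 CPM over 150 cells of mKate2 AAV replicate 2, the only capture with at least 20 such cells. T cell-like cells, 52 in the same capture, led for S100a4 at 667 CPM and were at 1355 CPM for S100a6. S100a10 was at 581 CPM in T cell-like and 567 CPM in pericyte-like cells, neighbours whose order rests on 1 capture. S100a13 varied least over the non-neuronal classes, from 75.1 CPM in pigment epithelium-like to 161 ± 50.4 in MG. Among named classes S100b was highest in MG, at 18.6 ± 8.1 CPM. In its highest capture, mKate2 AAV replicate 2, S100b was at 45.8 CPM in the 271 MG of MG-like cluster 9, with Pax2 at 6.15 CPM. In the other MG-like clusters large enough to be read in that capture, S100b ran from 0 (cluster 14) to 28.8 CPM (cluster 19), with Pax2 at 0 CPM. The part of astrocytes in this was not tested. After the removal of cells past the MG limit S100b was at 0 UMIs in cone-like cells, as it was in pigment epithelium-like cells. For the cone-like cells of mKate2 AAV replicate 2, 3 counts would allow up to 3.77 CPM. Before that removal, cone-like cluster 32, in which 56.6% of 53 cells passed the MG limit, had S100b at 12.9 CPM. Unnamed clusters went higher for some members. Cluster 16, unnamed, had 227 cells, of which 74.0% passed the MG limit, and its best-scoring marker list was that of astrocytes, with 3 markers detected and 0 among its 10 leading genes. It had S100b at 77.5 and S100a1 at 1324 CPM over the 4 captures. Cluster 37, unnamed, had S100a6 at 14457 and S100a11 at 4805 CPM in 21 cells of mKate2 AAV replicate 2, above the pericyte-like cells of that capture.

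**Figure D2:**
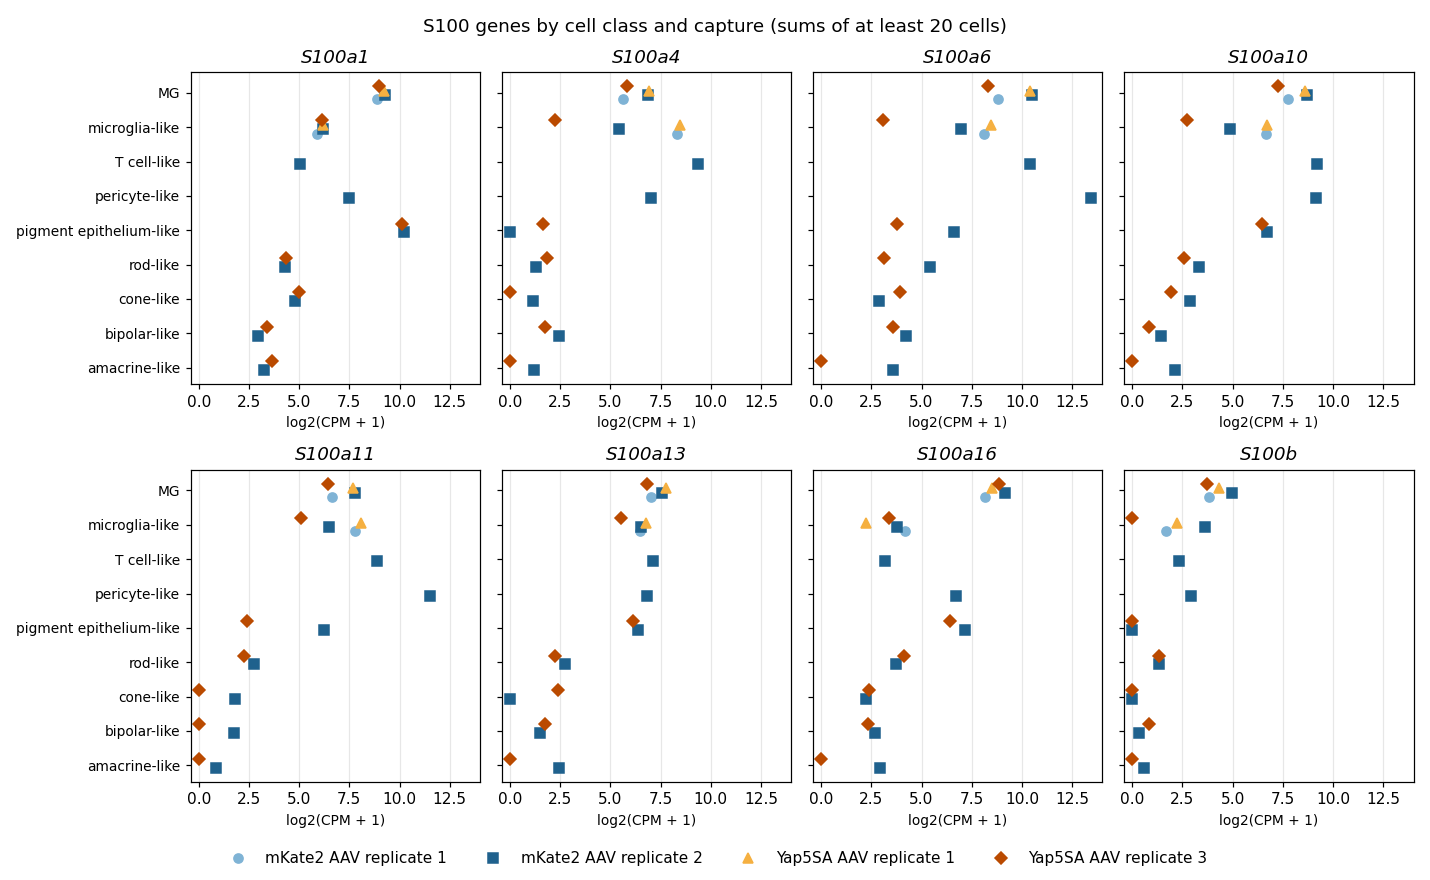
Levels of the 8 S100 genes by cell class, as log2(CPM + 1), with 1 point per capture for sums of at least 20 cells and the captures told apart by color and shape. Among these named classes, S100a16 and S100b have their highest mean in MG, S100a1 has it in pigment epithelium-like cells, and S100a6 and S100a11 reach 10971 and 2914 CPM in pericyte-like cells.

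In rod-like cells, usable in 2 captures, S100a6 was at 42.1 CPM in mKate2 AAV replicate 2 and 7.88 CPM in Yap5SA AAV replicate 3, against 1456 and 318 CPM in MG of the same captures. S100a1 was at 18.6 and 19.1 CPM there, against 617 and 502. All 8 members were called higher in MG (edgeR with the capture as a term, 60.9% of 14689 genes called in either direction), by 4.09 ± 0.47 (SE, adjusted p = 6.6e-06) on the log2 scale for S100b to 5.75 ± 0.40 (adjusted p = 4.4e-08) for S100a4. The median of the members was 5.26 beside 0.13 over all genes tested. Means over these 2 captures of rod-like cells were also set against means over the MG of all 4 captures. The 5 MG markers were at 0.78% (Slc1a3) to 3.3% (Clu) of their MG level in the rod-like cells, from which cells with a high share of these markers had been removed. The 8 members were at 2.4% (S100a10 and S100a4) to 8.1% (S100b) of theirs. Within the 2 captures S100b was 19.9-fold (mKate2 AAV replicate 2) and 8.25-fold (Yap5SA AAV replicate 3) higher in MG, so its percentage differed between them. Free RNA gives all cell types a low share of such counts, and its part here was not tested. Bipolar-like and amacrine-like cells had S100a6 at 14.3 and 5.39 CPM.

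Against microglia-like cells 5 of 8 members were called, all higher in MG (edgeR, 49.8% of 16203 genes called). S100a16 was higher by 5.11 ± 0.40 on the log2 scale (adjusted p = 1.1e-07) and S100a1 by 2.67 ± 0.28 (adjusted p = 1.8e-06), each in 4 of 4 captures. S100a10 was higher by 2.35 ± 0.44 (adjusted p = 0.00045), S100a6 by 2.32 ± 0.50 (adjusted p = 0.0015) and S100b by 1.73 ± 0.52 (adjusted p = 0.012), also in 4 of 4. For S100b the microglia-like cells of the 4 captures held only 1, 63, 8 and 0 UMIs. Its share of cells, given above, was not higher in MG in mKate2 AAV replicate 1. S100a13 missed the threshold at 0.64 ± 0.27 (adjusted p = 0.059), though it was higher in MG in 4 of 4 captures and was called by DESeq2. S100a4 and S100a11 did not pass, at -0.54 ± 0.70 (adjusted p = 0.55) and -0.11 ± 0.37 (adjusted p = 0.83).

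S100a4, the myosin partner, varied widely between captures. In microglia-like cells it was at 320 CPM in mKate2 AAV replicate 1, 42.2 in mKate2 AAV replicate 2, 355 in Yap5SA AAV replicate 1 and 3.73 in Yap5SA AAV replicate 3. In mKate2 AAV replicate 1 the 148 UMIs of S100a4 lay in 18.75% of the 32 microglia-like cells. The summed level of S100a4 was above MG in the version 8.0.0 captures and below MG in the others. S100a6 gave 277, 124, 349 and 7.45 CPM in these cells and S100a11 218, 89.9, 272 and 33.5 CPM, with the same order of captures. S100a1, at 58.4, 71.4, 71.6 and 68.9 CPM, did not follow them. The class held 32, 923, 156 and 66 cells in the 4 captures, and its clusters drew on the captures unequally. With cells past the MG limit included, 417 cells of mKate2 AAV replicate 2 lay in cluster 6, led by the immunoglobulin genes Igkc, Ighg2c and Jchain, and 421 in cluster 8, while 124 cells of Yap5SA AAV replicate 1 lay in cluster 15, led by the chemokine and signaling genes Cxcl2, Ccl4 and Rgs1. Cd74, the invariant chain gene that acts in MHC class II presentation, was at 34453, 3191 and 15997 CPM in clusters 6, 8 and 15. P2ry12, a gene of microglia, was at 69.4, 267 and 130 CPM in them. The clusters of the class thus differed, and the part of macrophages in the class was not tested. Within cluster 15 S100a4 was at 321, 86.0, 284 and 0 CPM, over 23, 71, 124 and 14 cells. The last of these is below the limit of 20 cells, and the other captures differed there too.

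Between AAVs, microglia-like cells gave 0 of 7 tested members called and 0% of 9078 genes called (edgeR, 4 genes called by DESeq2, and 100 with an unadjusted edgeR p under 0.05). S100b was removed by the filter on low counts. The values ran from -1.37 ± 0.80 (SE) for S100a16 to 0.03 ± 0.41 for S100a1. Without Yap5SA AAV replicate 1 the test called 37 of 7114 genes and among them 3 members, lower with Yap5SA, S100a4, S100a6 and S100a10, with S100a4 at -5.46, and it rested then on the single remaining Yap5SA capture, whose 66 cells held 2 UMIs of S100a4.

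Among MG, cells with a Gfap UMI were compared with those without one, after thinning to 2000 UMIs. They numbered 53, 568 and 102 in 3 captures, and Yap5SA AAV replicate 3, with 10, was left out. S100a6 was at 915, 2619 and 1559 CPM in Gfap-positive MG of these captures (both of mKate2 AAV, then Yap5SA AAV replicate 1), and at 449, 1547 and 1313 CPM in Gfap-negative MG. It was higher in 3 of 3 captures, and the fold ran from 1.19 to 2.04. edgeR called 2 of 8 members, S100a6 at 0.73 ± 0.16 (SE, adjusted p = 0.0016) and S100a16 at 0.57 ± 0.16 (adjusted p = 0.035) on the log2 scale, against 1.86% of 10814 genes called in either direction. S100a10 at 0.55 ± 0.17 (adjusted p = 0.053), S100a11 at 0.58 ± 0.18 (adjusted p = 0.06) and S100a13 at 0.50 ± 0.18 (adjusted p = 0.12) were higher in 3 of 3 captures and did not pass. With Yap5SA AAV replicate 2, which holds the same cells, in place of replicate 1, these 3 passed (adjusted p = 0.011, 0.041 and 0.023), with 5 of 8 members and 261 of 10790 genes called. The median of the 8 members was 0.53 beside -0.04 over all genes tested. S100a16 kept its call with DESeq2, RLE size factors, MG-like clusters only and Yap5SA AAV replicate 2 in place of 1. It lost it with no filter on low counts (adjusted p = 0.20), at a mitochondrial limit of 10% (0.10), at an MG marker share of at least 1% (0.38), with a deeper thinning target (0.19) and without mKate2 AAV replicate 1 (0.30), mKate2 AAV replicate 2 (0.22) or Yap5SA AAV replicate 1 (0.068). The call of S100a6 was lost without either mKate2 capture (adjusted p = 0.097 without replicate 1 and 0.17 without replicate 2) and at an MG marker share of at least 1% (0.38, adjusted p = 0.59), and stayed without Yap5SA AAV replicate 1 (adjusted p = 0.00022). Before thinning, Gfap-positive MG were the shallower cells, with a median of 6215 against 8508, 3657 against 4226.5 and 11619 against 12306.5 UMIs in the 3 captures, and the part of depth in these values was not tested. Pax2 was at 1 UMI in the Gfap-positive MG of mKate2 AAV replicate 2 and at 0 in those of the other two captures.

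**Figure D3:**
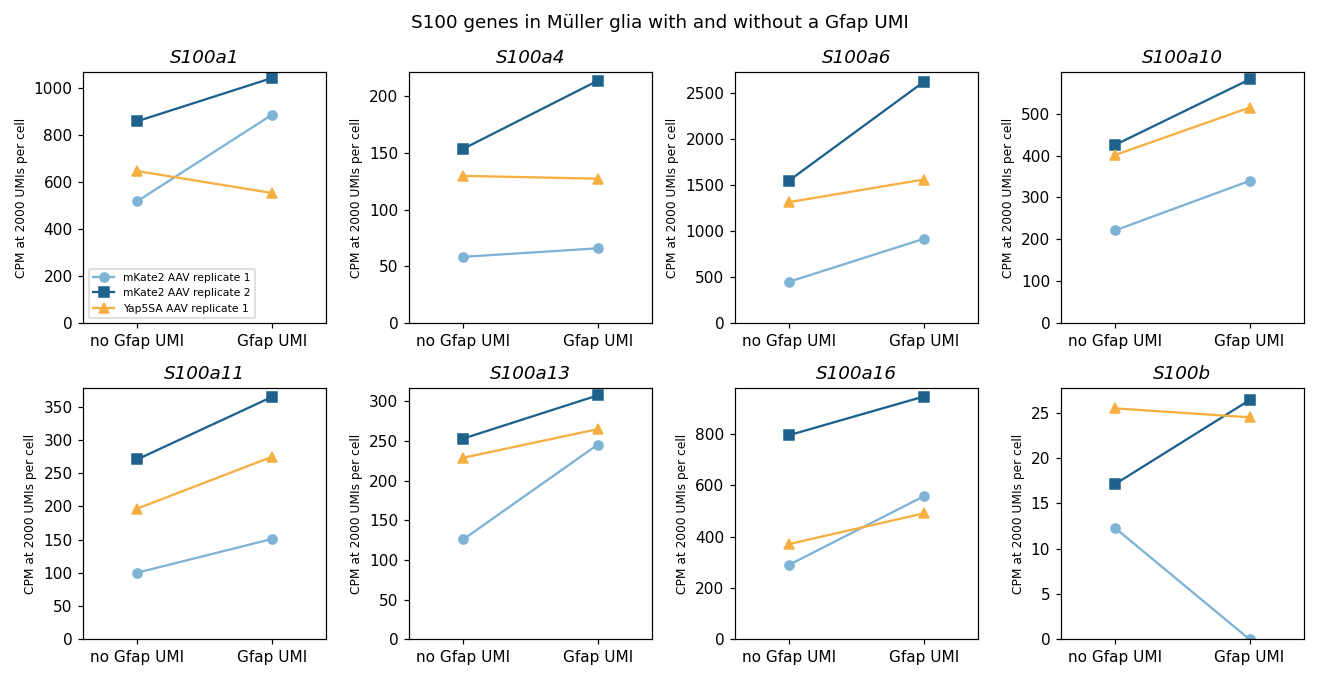
Levels of the 8 S100 genes in MG without and with a Gfap UMI, as CPM of cells thinned to 2000 UMIs (linear axes from 0), with 1 line per capture for the 3 captures used. S100a6 rises along every line, from 449, 1547 and 1313 to 915, 2619 and 1559 CPM, and S100b shows no common direction.

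The depth of a cell went with the members as well. MG of at least 5000 UMIs numbered 842, 751, 588 and 340 in the 4 captures and shallower MG 656, 2147, 215 and 1001. Of the 8 members, 7 were called lower in deep MG (edgeR, 33.2% of 14582 genes called in either direction), and each of these was lower in 4 of 4 captures. S100a1 had the largest value, -1.34 ± 0.20 on the log2 scale (adjusted p = 0.0013), and S100a10 the smallest of those called, -0.84 ± 0.21 (adjusted p = 0.011). The median of the members was -1.09 beside 0.14 over all genes tested. S100b did not pass, at -0.46 ± 0.31 (adjusted p = 0.27). Deep and shallow MG lay unequally over the clusters. The median depth was 8134.5 to 23742 UMIs in MG-like clusters 3, 5, 9 and 10, with S100a1 at 248 to 557 CPM, and 1862 to 4276 UMIs in the other 7 MG-like clusters, with S100a1 at 799 to 1086 CPM. The part of the clusters in the difference by depth was not tested. S100a1 was at 962, 1040, 968 and 864 CPM in MG of 1000 to 2000 UMIs in the 4 captures, and at 435, 317, 570 and 210 CPM in MG of 10000 or more. The median share of UMIs from ribosomal protein genes was 9.94, 12.3, 11.5 and 11.1% in the former cells and 3.61, 2.03, 4.80 and 1.28% in the latter. The median mitochondrial share also differed, at 5.62, 8.46, 4.62 and 6.96% in the former and 2.28, 1.54, 2.56 and 0.52% in the latter. The part of either share in these values was not tested. The paper excluded a cluster with fewer counts and a higher ribosomal share, which it reads as stressed by dissociation. No such cluster was removed here, and which of these MG would belong to it was not tested.

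In cells of 1000 to 2000 UMIs S100a6 was at 658, 1859, 1752 and 572 CPM in the 4 captures, and in cells of 2000 to 5000 UMIs at 596, 1998, 1691 and 564 CPM. In cells of 5000 to 10000 UMIs it was at 363, 2338, 969 and 532 CPM, and in deeper cells at 444, 984, 1400 and 113 CPM. Within each range mKate2 AAV replicate 2 and Yap5SA AAV replicate 1 were above the others, and which of the remaining captures was lowest differed between ranges.

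**Figure D4:**
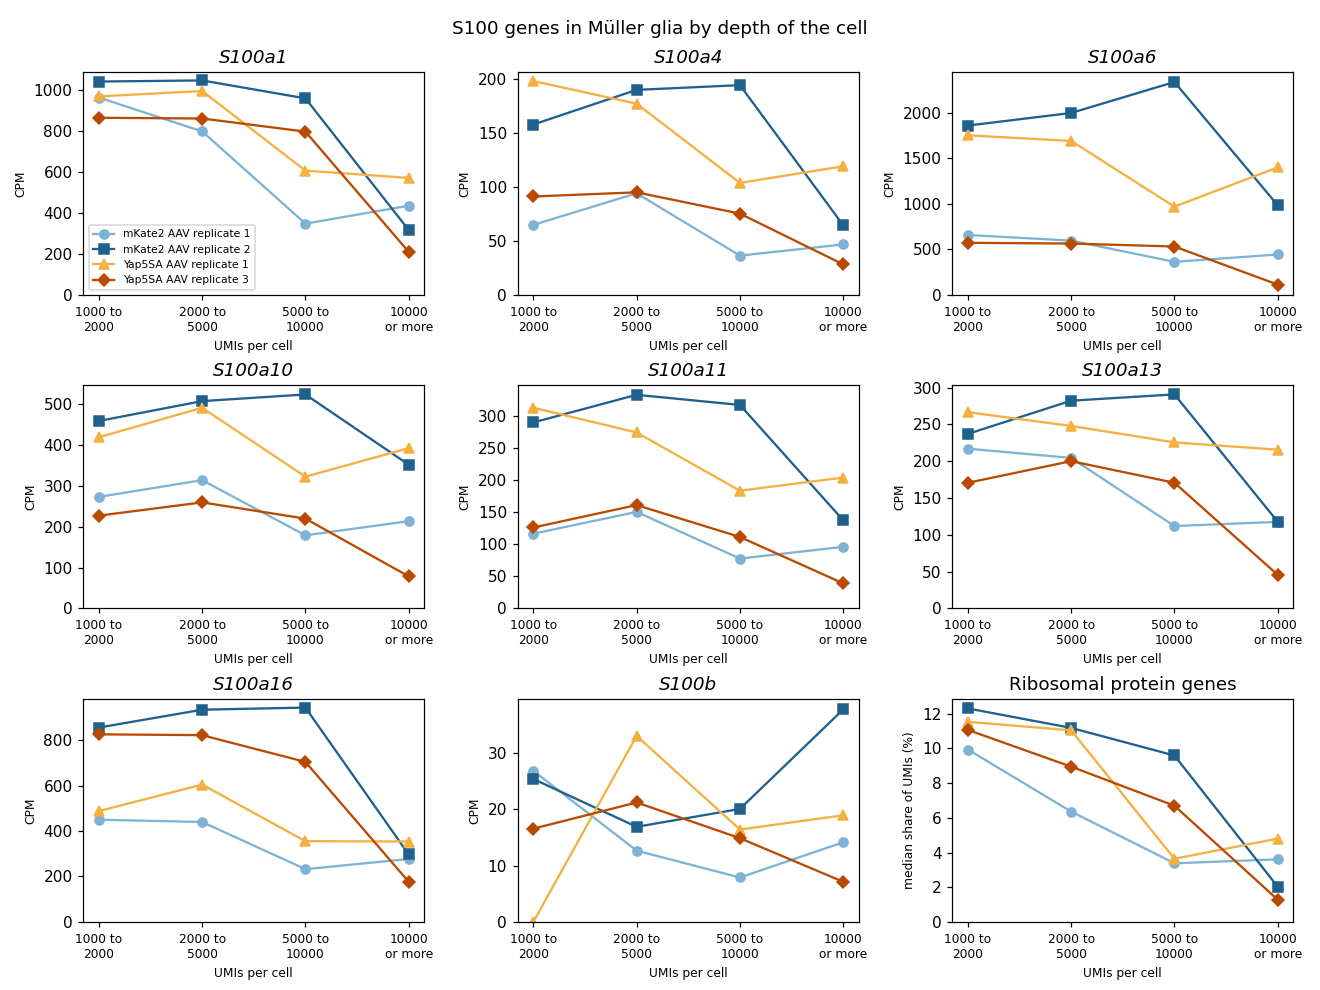
Levels of the 8 S100 genes in MG by UMIs per cell, as CPM (linear axes from 0), with 1 line per capture, and in the last panel the median share of UMIs from ribosomal protein genes in percent. S100a1 in mKate2 AAV replicate 2 goes from 1040 to 317 CPM between the shallowest and the deepest cells, and the ribosomal share goes from 12.3% to 2.03%.

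Cells within a capture showed weak relations among the members. At 2000 UMIs per cell, Pearson's r over MG of 1 capture had a median between 0.13 and 0.16 over the 28 pairs of members in the 4 captures, with the highest for S100a6 and S100a10 in Yap5SA AAV replicate 1 (0.38). Over the same cells the r with the ribosomal share was 0.46, 0.30, 0.44 and 0.35 for S100a1, the highest member in each capture, and 0.04, -0.01, 0.15 and 0.05 for S100b, the lowest in each. These are descriptions of sparse counts from cells of 1 library.

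Over 20 sums of cell classes and captures, the genes most like each member were named by Pearson's r on log2(CPM + 1), among 10569 genes. The sums share libraries. For S100a6 they were S100a11 (0.92), Parp3 (0.91) and S100a10 (0.91), and for S100a11 Vim (0.95), the integrin gene Itgb1 (0.94) and Ahnak (0.94). S100a16 was most like Dbi (0.95), Dapl1 (0.95) and Lhx2 (0.94), a transcription factor of MG. S100a1 was most like Smdt1 (0.97), Uqcr11 (0.96) and Mrps14 (0.96), of which all are mitochondrial. S100a4 was most like Crip1 (0.94), Fas (0.93) and 4930523C07Rik (0.92), and S100a10 was most like Plp2 (0.94), Polr1d (0.93) and Snrpd2 (0.92). S100a13 was most like Xaf1 (0.96), Rab29 (0.96) and Plaat3 (0.96), and S100b most like Cp (0.89), Slc7a2 (0.89) and Zcchc24 (0.89).

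Of 24 listed partner and other S100 genes, 15 passed the filter in MG and 0 were called between AAVs by edgeR, with 13 below 0 and 2 above. Their median was -0.18 on the log2 scale, beside -0.03 over all genes tested. This balance moved when 1 capture was left out. Without mKate2 AAV replicate 2, 7 were above 0 and 8 below, with a median of -0.008, and without mKate2 AAV replicate 1 the median was -0.42. Anxa2, the partner of S100a10, gave 10.9, 81.4, 48.6 and 10.6 CPM in the 4 captures, and Anxa1 323, 572, 709 and 243 CPM. Both had the higher and lower captures that S100a10 and S100a11 had. Ahnak, a large scaffold protein bound by S100a10 and annexin A2, gave 122, 303, 129 and 91.7 CPM. Cacybp stayed between 127 and 172 CPM and Anxa5 between 284 and 329 CPM. Ager was low, at 5.30, 2.74, 2.70 and 2.43 CPM. The neutrophil genes S100a8 and S100a9 had 0 UMIs in the MG of all 4 captures.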

How the data were processed

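The authors sequenced sorted tdTomato+ retinal cells with the 10x Genomics Chromium platform, and the deposited values are whole-number UMI counts per gene and barcode, made with Cell Ranger and not normalized. The labels name Cell Ranger 8.0.0 and GRCm39, while the headers give 8.0.0 for 3 libraries and 9.0.1 for 2. The tdTomato entry of 3 libraries was left out of library totals.

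Cells with under 1000 UMIs or over 15% mitochondrial UMIs were removed, and no doublet caller was run. The cells of 4 captures were clustered with scanpy 1.11.5 (2000 variable genes, 30 components, 15 neighbours, Leiden resolution 1, leidenalg 0.10.2, no integration), with S100, mitochondrial and ribosomal protein genes left out. Clusters were named from marker lists by a rule that was adjusted once its first output was known. Counts were summed per capture and class, passed through filterByExpr, normalized by TMM and compared with edgeR 4.0.16 (quasi-likelihood, Benjamini-Hochberg over all genes at 0.05), with DESeq2 1.42.0 beside it. Comparisons within captures had the capture as a term. Classes needed at least 20 cells per capture, or 10 for rods. CPM values are counts divided by the capture's summed UMIs. UMI counts of a 3′ kit are not per length, so levels of different genes were not compared.

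Simulated counts in which 200 genes had been changed were used to test the calls. At 8-fold the test recovered 50% of them for MG between AAVs, 68.5% for microglia-like cells between AAVs, 81.5% and 84% for MG against microglia-like and rod-like cells, 86% for Gfap and 91.5% for depth. False calls made up 3.91 to 12.8% of calls at 8-fold, above the nominal 5% in 5 of 6 comparisons. At 2-fold it recovered 0% in both comparisons between AAVs, where both calls made in each were false (100%), 3.5% and 5% for MG against microglia-like and rod-like cells (56.2% and 0% of calls false), 42.5% for Gfap (3.41% false) and 37.5% for depth (17.6% false). Depth limits what can be seen of S100b. The members, lists and tests were chosen with earlier results of these data known. The genes named are the members, the partner list and the 3 genes most like each member.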

Additional observations from a re-analysis of the deposited data

Results flagged for a closer look

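Between AAVs, all 8 members went opposite ways in MG of the captures processed with Cell Ranger 8.0.0 and those processed with 9.0.1, on log2(CPM + 1), Yap5SA over mKate2. The values were 0.36 and -0.30 for S100a1, 1.28 and -1.04 for S100a4, 1.61 and -2.19 for S100a6, 0.84 and -1.43 for S100a10, 1.07 and -1.32 for S100a11, 0.77 and -0.75 for S100a13, 0.35 and -0.30 for S100a16, and 0.52 and -1.21 for S100b. Each value compares 1 capture with 1 capture, and the difference was not tested.

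Between Gfap-positive and Gfap-negative MG, S100a1 was higher in both mKate2 captures (0.77 in replicate 1 and 0.28 in replicate 2) and lower in Yap5SA AAV replicate 1 (-0.22). S100a4 gave 0.17 and 0.47 in the mKate2 captures and -0.03 in the Yap5SA capture. These differences were not tested.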

How the results depend on the processing

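No paired analysis was possible because the replicate numbers of the captures compared between AAVs match only for replicate 1, too few for a block on that number. Captures of both AAVs do share a processing version, and the version was fitted as a term. The members called between MG and microglia-like cells (5 or 6), between MG and rod-like cells (8) and between deep and shallow MG (6 or 7) stayed within 1.5 times the main count under all alternatives run. Leaving out a capture of the rod comparison leaves no residual degrees of freedom and was not run. Counts of members called between AAVs in MG, and of partner genes called, were 0 under all alternatives run, in a comparison that could not detect small changes. No share of MG with a UMI could pass the exact test.

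Leaving out 1 capture turned the sign of all 8 members between AAVs in MG, with log2 values of -0.37 to 0.25 for S100a1, -0.69 to 0.85 for S100a4, -1.71 to 0.92 for S100a6, -1.15 to 0.33 for S100a10, -0.99 to 0.59 for S100a11, -0.60 to 0.37 for S100a13, -0.65 to 0.55 for S100a16, -1.13 to 0.29 for S100b. In microglia-like cells the values ran from -0.19 to 0.32 for S100a1, -5.46 to 1.88 for S100a4, -4.68 to 0.68 for S100a6, -3.37 to 0.81 for S100a10, -2.13 to 0.70 for S100a11, -1.004 to 0.064 for S100a13, and 0 to 3 members were called. For MG against microglia-like cells, the values were -1.42 to 0.36 for S100a4, -0.59 to 0.28 for S100a11. At a mitochondrial limit of 10%, S100a1, S100a4 and S100a13 in MG between AAVs were 0.031, 0.13 and 0.019. With the processing batch as a term S100a4 was 0.020 in MG and -0.88 in microglia-like cells. There S100a4 was also -0.087 with DESeq2, -0.0044 with RLE and -0.019 with Yap5SA AAV replicate 2 in place of 1, and S100a1 was -0.068 with no filter. Members called by Gfap status, 2 in the main test, were 1 with no filter, 1 at a mitochondrial limit of 10%, 0 at an MG marker share of 1%, 5 with Yap5SA AAV replicate 2 in place of 1 (261 genes), and 0 to 1 without a capture. S100b by Gfap status ran from -0.42 to 0.59 without a capture. The cause of these changes was not tested.

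Counts over all genes also moved. In microglia-like cells between AAVs 0 genes were called in the main test, 36 with no filter, 4 with DESeq2, 5 with the batch as a term and 37 without Yap5SA AAV replicate 1. By Gfap status 201 genes were called, against 120 with no filter, 53 with the deeper thinning target, 42 at an MG marker share of 1%, 27 at a mitochondrial limit of 10% and 16 without mKate2 AAV replicate 2. By depth 4847 were called, against 2372 without Yap5SA AAV replicate 3.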
